A study of Mus musculus with 5 samples.

Results

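The genes described here were the 4 Notch receptors Notch1, Notch2, Notch3 and Notch4, the 4 ligands Dll1, Dll4, Jag1 and Jag2, the transcriptional repressor gene Hes1 and the DNA-binding effector gene Rbpj. They were chosen by symbol as 10 of the 18307 rows of the RefSeq gene table, together with their 13 RefSeq transcripts of 25187. RNA came from heart ventricles of CD-1 mouse embryos, an outbred strain, at embryonic day 10.5. The 3 caffeine libraries came from embryos whose dams were injected daily with caffeine at 20 mg/kg from embryonic day 6.5 to 9.5, and the 2 vehicle libraries from embryos whose dams received 0.9% NaCl on the same days. All groups had the same strain and stage, with no engineered allele. Each library was made from ventricles pooled over embryos of shared dams, so the spread between libraries is between pools and not between single embryos.

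Notch receptors span the cell membrane and are bound by Delta-like or Jagged ligands on a neighbouring cell. Binding leads to cleavage of the receptor by ADAM proteases and gamma-secretase, and the released intracellular domain enters the nucleus and joins RBPJ and Mastermind proteins on DNA, where genes of the HES and HEY repressors are switched on. In the embryonic ventricle, Notch1 and Dll4 are best known from the endocardium, the endothelial lining of the heart, where this signalling is needed for trabeculae to form in the neighbouring myocardium.

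The 300-base windows around annotated transcription starts in the RefSeq promoter table (build GRCm38.p6, 250 bases before and 50 from the start) were read for 9 of the 10 genes, in 11 windows; Hes1 had no entry. They are shown for Rbpj, which has several transcripts, 2 of them starting at the start of this window, and for Notch1 and Dll4, the endocardial receptor and ligand pair. Capitals mark the RBPJ core motif TGGGAA (reverse complement TTCCCA) and the HES N-box CACNAG (reverse complement CTNGTG), both searched on both strands.
Rbpj, chr5:53590096-53590395, plus strand: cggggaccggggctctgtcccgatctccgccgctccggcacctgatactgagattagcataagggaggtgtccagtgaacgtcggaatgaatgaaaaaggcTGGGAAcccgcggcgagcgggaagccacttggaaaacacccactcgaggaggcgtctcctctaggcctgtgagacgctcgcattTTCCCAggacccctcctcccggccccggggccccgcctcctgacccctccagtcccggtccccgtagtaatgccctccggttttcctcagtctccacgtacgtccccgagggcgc
Notch1, chr2:26503773-26504072, minus strand: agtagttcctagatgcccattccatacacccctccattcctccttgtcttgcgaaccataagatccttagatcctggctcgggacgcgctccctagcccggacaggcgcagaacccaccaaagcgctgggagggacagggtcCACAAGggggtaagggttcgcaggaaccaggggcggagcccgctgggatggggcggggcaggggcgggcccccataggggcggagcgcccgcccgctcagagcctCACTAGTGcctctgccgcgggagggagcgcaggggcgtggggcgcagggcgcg
Dll4, chr2:119325534-119325833, plus strand: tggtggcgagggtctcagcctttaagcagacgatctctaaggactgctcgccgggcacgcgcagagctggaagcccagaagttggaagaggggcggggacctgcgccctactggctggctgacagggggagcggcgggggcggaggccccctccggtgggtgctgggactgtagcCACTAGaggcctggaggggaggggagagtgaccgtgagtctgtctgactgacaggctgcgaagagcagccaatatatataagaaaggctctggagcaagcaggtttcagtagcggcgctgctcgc
The Rbpj window held the RBPJ core motif 2 times, beginning 149 bases before the start on the plus strand and 65 bases before it on the minus strand. The second of these also lay in the other Rbpj window, whose start is at 53590486, that of the transcript NM_001080927. No other window of these genes held it, so 2 of 11 windows did, against 25.6% of 32851 windows of all genes. The longer form GTGGGAA was in none of the 11, against 6.38% of all windows. The N-box was in 5 of 11 windows, those of Notch1, Notch2, Notch3 and Dll4 and the more distal of 2 windows of Dll1, against 42.5% of all windows. In the Notch1 window 2 of its 3 matches were the same site read on both strands, CACTAG and CTAGTG, which overlap. No window held both motifs, so their matches could not overlap. These are matches of letters, and binding was not measured.

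RefSeq gene totals ran from 21713372 to 25048122 rounded counts per library, and the biological coefficient of variation common to all genes was 0.145. Endothelial and endocardial markers were present in every library: 14 of 14 were measured, with a sum of 1950, 1700 and 1750 CPM (counts scaled to each library's effective size) in the caffeine libraries and of 1880 and 1960 CPM in the vehicle libraries. The 10 cardiomyocyte markers summed to 34000, 34800 and 34500 CPM in caffeine and to 42200 and 38900 CPM in vehicle, so the caffeine libraries were all lower, and no marker passed the test; the part of this difference in the values of the Notch genes was not tested. In neural tissue and crest, Sox2, Sox10 and Pax6 stayed under 1 CPM in every library, and in paraxial mesoderm Mesp2, Tbx6 and Tcf15 did, while Meox1 had 2.33, 1.42 and 2.27 CPM in caffeine and 1.69 and 1.82 CPM in vehicle. Of the listed markers, 4 of 6 neural and 4 of 5 paraxial ones were measured. Nes, the remaining neural one, made up nearly all of its list's sum. That sum was 68.6, 91.5 and 93.7 CPM in caffeine and 108 and 110 CPM in vehicle. Foregut and hepatic markers summed to values from 6.26 to 35.1 CPM in caffeine and from 6.34 to 94.6 CPM in vehicle, most of it Afp, while Foxa2 and Alb stayed under 1 CPM. In bulk tissue, fewer cells of a type and less RNA per cell cannot be told apart.

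Notch1 was the receptor with the most reads. It had 80.4, 76.8 and 95.9 CPM in the caffeine libraries and 76.5 and 92.8 CPM in the vehicle libraries. The highest library of each group was within a few CPM of the other, and the groups overlapped. The log2 fold change, caffeine minus vehicle, was -0.01 (SE 0.15, 95% interval -0.33 to 0.31, edgeR adjusted p = 0.999). Notch1 lies on chromosome 2 from 26457902 to 26503822 on the minus strand (mm10), in 34 exons.

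Notch2, a widely expressed receptor, lies on chromosome 3 from 98013538 to 98150367. It had 50.8, 48.9 and 52.8 CPM in caffeine, against 42.2 and 58.6 CPM in vehicle. All 3 caffeine libraries lay between the 2 vehicle libraries, which differed from each other by 0.47 on the log2 scale (vehicle replicate 1 minus replicate 2 was -0.47), and the log2 fold change was 0.01 (SE 0.16, adjusted p = 0.999, edgeR). Without vehicle replicate 1 it was -0.21 and without vehicle replicate 2 it was 0.24, so the direction changed with the vehicle library kept. It was also -0.01 without caffeine replicate 3.

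Notch3, best known from mural cells of blood vessels, had the largest difference of the 10 genes. Its level was 34.6, 40.2 and 47.5 CPM in caffeine and 32.8 and 36.3 CPM in vehicle. Caffeine replicate 3 was highest, but caffeine replicate 1 lay below vehicle replicate 2, so the groups overlapped. The log2 fold change was 0.24 (SE 0.16, 95% interval -0.11 to 0.59, edgeR adjusted p = 0.999, unadjusted p = 0.159). Without caffeine replicate 3 it was 0.12, and without caffeine replicate 1 it was 0.35. Of mural markers, the pericyte receptor gene Pdgfrb had 37.5, 32 and 39.8 CPM in caffeine and 38.6 and 40.0 CPM in vehicle. Rgs5 had 3.41, 5.24 and 7.40 CPM in caffeine and 3.63 and 6.65 CPM in vehicle. Both markers overlapped between the groups, and 6 mural markers summed to between 1500 and 3280 CPM in caffeine and to 2920 and 2550 CPM in vehicle, with Myh11 under 1 CPM. Within the caffeine group the libraries had the same order for Notch3, Rgs5 and this sum, but not for Pdgfrb or Myh11. The mural markers Cspg4, Tagln and Acta2 also had that order. Acta2, with 1250, 2140 and 2770 CPM in caffeine and 2450 and 2140 CPM in vehicle, made up most of this sum. The order of the sum is thus not separate from that of Acta2. In vehicle, replicate 2 was above replicate 1 for Notch3 and Rgs5 and below it for this sum. The part of mural cells in the Notch3 values was not tested.

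Notch4, a receptor largely of endothelium, was the steadiest receptor. It had 23.6, 19.9 and 20.7 CPM in caffeine and 21.6 and 21.0 CPM in vehicle. Both vehicle libraries lay inside the caffeine range, and the log2 fold change was 0.01 (SE 0.15, 95% interval -0.32 to 0.33, edgeR adjusted p = 0.999). Notch3 and Notch4 lie on chromosome 17, from 32120893 to 32166852 and from 34564295 to 34588543.

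**Figure D1:**
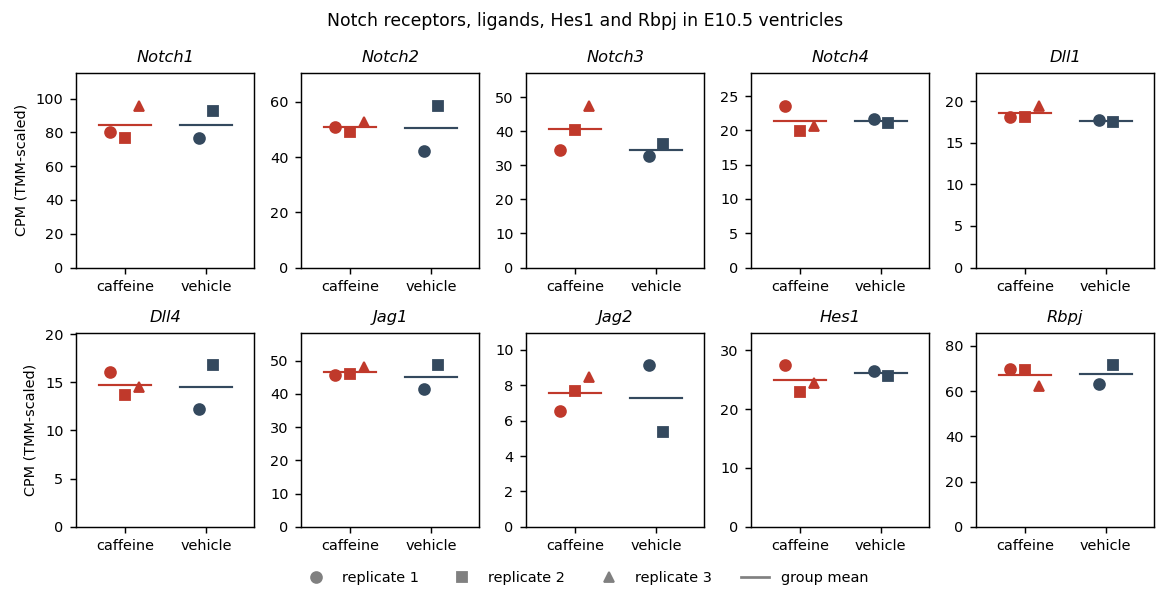
CPM of the 10 genes in each library, caffeine (n = 3) left of vehicle (n = 2), with a line at each group mean and axes starting at 0. The group means nearly coincide for most genes, Notch3 shows the widest gap with overlapping libraries, and the 2 vehicle libraries of Jag2, 9.14 and 5.37 CPM, enclose all 3 caffeine libraries.

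Among the ligands, Jag1 had the most reads. It had 45.7, 45.9 and 48.1 CPM in caffeine and 41.5 and 48.7 CPM in vehicle, and the vehicle libraries enclosed the caffeine libraries. Its log2 fold change was 0.05 (SE 0.14, edgeR adjusted p = 0.999), and -0.07 without vehicle replicate 1. Jag1 lies on chromosome 2 from 137081451 to 137116520.

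Dll4, the main Delta-like ligand of arterial endothelium and endocardium, had 16.1, 13.7 and 14.5 CPM in caffeine, against 12.2 and 16.8 CPM in vehicle. Here too the vehicle libraries lay outside the caffeine libraries on both sides. The log2 fold change was 0.03 (SE 0.18, 95% interval -0.37 to 0.43, edgeR adjusted p = 0.999). It was -0.19 without vehicle replicate 1, 0.25 without vehicle replicate 2 and -0.04 without caffeine replicate 1. Dll4 lies on chromosome 2 from 119325784 to 119335666.

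Dll1, a ligand best known from somites and neural progenitors, was the only one of the 10 genes whose groups did not overlap. It had 18.1, 18.1 and 19.5 CPM in caffeine and 17.8 and 17.5 CPM in vehicle. The libraries differed by at most 1.11 times, the smallest spread of the 10 genes, and the log2 fold change was 0.07 (SE 0.15, 95% interval -0.25 to 0.40, edgeR adjusted p = 0.999). All caffeine libraries lay above all vehicle libraries for 11.2% of the 13829 genes tested and below them for 9.27%, so 1 of 10 is near that background. Dll1 lies on chromosome 17 from 15367354 to 15375823.

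Jag2 was the ligand with the fewest reads and the most variable of the 10 genes. It had 6.56, 7.65 and 8.44 CPM in caffeine and 9.14 and 5.37 CPM in vehicle, from 158, 178 and 186 counts and from 222 and 118 counts. Vehicle replicate 1 was the highest library of all and vehicle replicate 2 the lowest. The log2 fold change of 0.05 (SE 0.24, 95% interval -0.48 to 0.58, edgeR adjusted p = 0.999) became 0.49 without vehicle replicate 1 and -0.30 without vehicle replicate 2. Jag2 lies on chromosome 12 from 112908590 to 112929495.

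Rbpj, the factor through which the receptors act on DNA, had 69.8, 69.2 and 62.2 CPM in caffeine and 63.2 and 71.6 CPM in vehicle. The groups overlapped, and the log2 fold change was -0.01 (SE 0.14, 95% interval -0.30 to 0.29, edgeR adjusted p = 0.999). Rbpj lies on chromosome 5 from 53555779 to 53657445. A copy, Rbpj-ps3, matched its transcript at 99.7% identity over 1441 bases in GENCODE, so its count is uncertain where reads could come from either.

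Hes1, a repressor gene that Notch switches on, had 27.5, 22.9 and 24.4 CPM in caffeine and 26.5 and 25.6 CPM in vehicle. Caffeine replicates 2 and 3 lay below both vehicle libraries and caffeine replicate 1 above both. The log2 fold change was -0.06 (SE 0.15, 95% interval -0.38 to 0.26, edgeR adjusted p = 0.999). Hes1 lies on chromosome 16 from 30065357 to 30067796.

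Whether caffeine in early gestation altered expression of these genes in the ventricle was thus tested by the same fit for each. With so few pools, a gene that does not pass is not shown to be unaltered. None of the 10 passed FDR 0.05 in edgeR, where 0.00723% of all genes tested did (1 of 13829), and none had an unadjusted p under 0.05, against 5.2% of all genes; DESeq2 and limma-voom also passed none of the 10. All 10 passed the filter on low counts. Their median log2 fold change was 0.02 with 7 positive and 3 negative, beside a median of 0.01 over all genes tested. The median size of the change, sign left aside, was 0.04 for the 10 genes and 0.13 for all genes tested; over the 10166 genes with a mean level at least that of Jag2 it was 0.11. For 7 of the 10 the 2 vehicle libraries differed from each other by more than the groups did, as for 66.1% of all genes, the exceptions being Notch3, Dll1 and Hes1. The 95% intervals of Notch1, Notch2, Notch4, Dll1, Jag1, Hes1 and Rbpj end within 0.4 on either side of 0, those of Dll4 and Notch3 within 0.6, and that of Jag2 within 0.58.

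**Figure D2:**
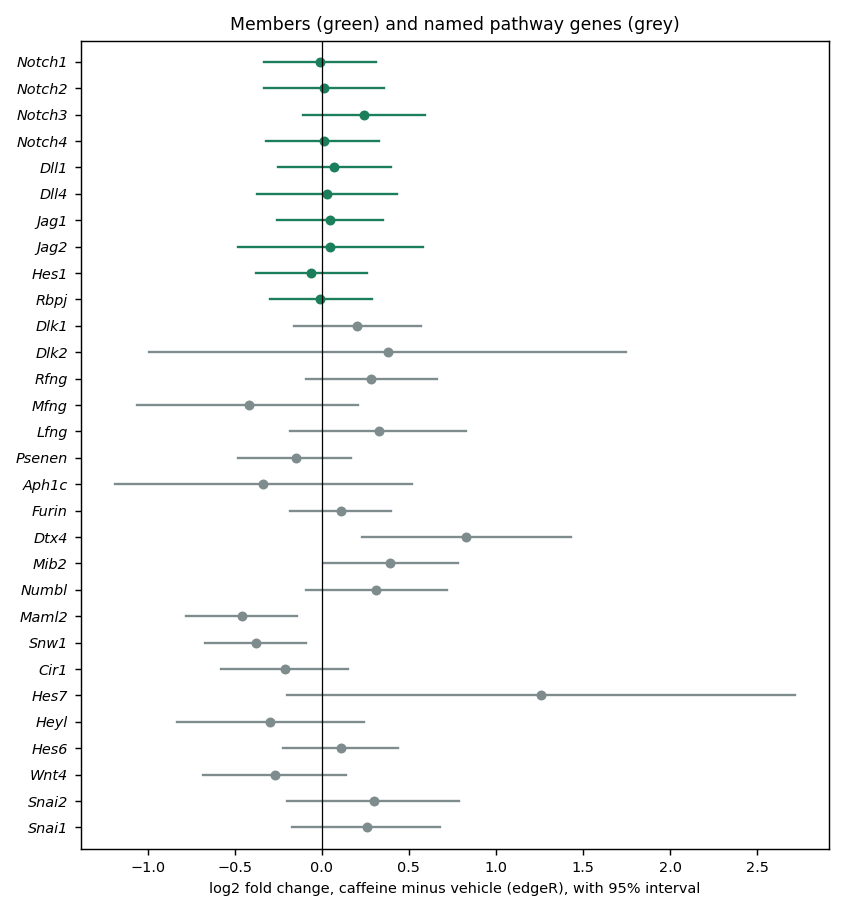
Log2 fold change, caffeine minus vehicle, with its 95% interval for the 10 genes (green) and for 20 other Notch pathway genes (grey). The 10 green genes are shown whatever their p. The grey ones are the up to 3 genes with the smallest p of each list, out of 51 tested, which favours intervals that leave out 0. The interval of each of the 10 genes holds 0, such as -0.11 to 0.59 for Notch3, and those of Dtx4, Mib2, Maml2 and Snw1 do not, before adjustment for the number of genes tested.

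Levels of different genes can be compared only per length. On the scale of CPM per kb of transcript, summed over a gene's RefSeq transcripts, Hes1 was highest with 18.7, 15.5 and 16.6 in caffeine and 18 and 17.3 in vehicle. Rbpj came next with 11.6 to 12.9 in caffeine and 11.7 and 13.3 in vehicle, and neither range met its neighbours'. Notch1, with 8.06 to 10.1 in caffeine and 8.05 and 9.74 in vehicle, and Jag1, with 8.13 to 8.57 in caffeine and 7.38 and 8.65 in vehicle, overlapped. Below them Dll1 (mean over the 5 libraries 5.07), Notch2 (4.82), Notch3 (4.76), Dll4 (3.90) and Notch4 (3.23) formed a run in which each overlapped the next. Dll1 was above Notch2 in 4 of 5 libraries, Notch2 above Notch3 in 2, Notch3 above Dll4 in 5 and Dll4 above Notch4 in 4. Jag2 was lowest at 1.45, below every other gene in all 5 libraries.

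**Figure D3:**
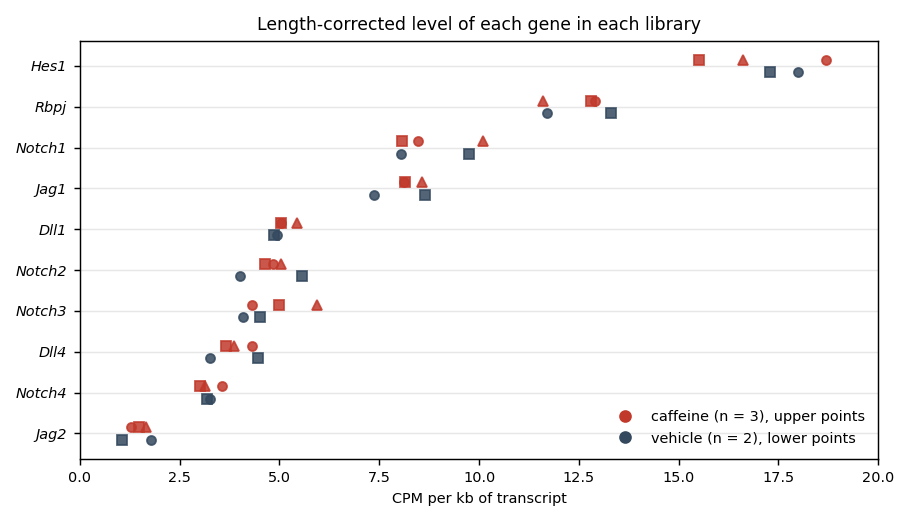
Level of each gene in CPM per kb of transcript, a linear axis from 0, with caffeine libraries above vehicle libraries within each row. Hes1 and Rbpj stand apart from the rest, 5 genes from Dll1 to Notch4 overlap their neighbours, and Jag2 stands lowest.

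The make-up of the receptors and ligands was compared on the same scale. Notch1 gave 40.0%, 38.9% and 41.7% of the summed receptor level in caffeine and 41.5% and 42.4% in vehicle. The difference of means was -1.72 percentage points (two-sided exact permutation p = 0.4, where 0.2 is the smallest that 3 against 2 libraries allow). It was -1.08 points without caffeine replicate 2, -2.49 points without caffeine replicate 3 and -0.50 points with the Ensembl gene table. Notch2 averaged 22% ± 1.08 in caffeine (SD, n = 3) and 22.4% ± 2.50 in vehicle (SD, n = 2), and Notch3 23.0% ± 2.31 and 20.3% ± 1.01 in the same order. Among the ligands Jag1 gave the most, 43.9% ± 0.557 in caffeine (SD, n = 3) and 44.0% ± 2.09 in vehicle (SD, n = 2). Dll4 gave 22.9%, 19.9% and 19.8% in caffeine and 18.7% and 23.5% in vehicle, a difference of -0.226 points (two-sided exact permutation p = 1). That difference was -2.61 points without vehicle replicate 1 and 2.16 points without vehicle replicate 2. It was 0.254 points without caffeine replicate 2, 0.309 points without caffeine replicate 3 and -1.24 points without caffeine replicate 1. Its direction thus changed with single libraries of either group. Dll1 averaged 27.4% ± 0.471 in caffeine (SD, n = 3) and 27.0% ± 2.08 in vehicle (SD, n = 2), and Jag2 7.82% ± 0.863 and 7.90% ± 3.39 in that order. The groups overlapped for Notch1 and for each ligand.

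Rbpj was the only one of the 10 genes with several RefSeq transcripts, which differ mainly at their first exons. NM_001080927, which starts at 53590486, was the one that varied: it had 19.9, 17.8 and 10.8 CPM in caffeine and 13.3 and 10.7 CPM in vehicle. Caffeine replicates 1 and 2 were high and caffeine replicate 3 lay with the vehicle libraries. Its log2 fold change was 0.43 (SE 0.28, edgeR adjusted p = 0.854 over 18418 transcripts), and 0.25 without caffeine replicate 1 or without vehicle replicate 2. It was 0.65 without caffeine replicate 3 and 0.60 without vehicle replicate 1. It made up 28.6%, 25.8% and 17.3% of the gene's counts in caffeine and 21.1% and 15% in vehicle. NM_001080928, from the most upstream start at 53555779, had 23.4, 24.2 and 25.2 CPM in caffeine and 24.4 and 29.7 CPM in vehicle (log2 fold change -0.16, SE 0.15, edgeR adjusted p = 0.927; -0.29 without vehicle replicate 1 and -0.04 without vehicle replicate 2). NM_009035 and NM_001277116 share a start at 53590346, that of the Rbpj window printed above. NM_009035 had 21.8 to 22.5 CPM in caffeine and 21.1 and 25.7 CPM in vehicle, and NM_001277116 4.06 to 4.54 CPM in caffeine and 4.23 and 5.17 CPM in vehicle, both overlapping.

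Transcript usage of Rbpj, whether its transcripts shift against each other, did not pass (edgeR diffSpliceDGE, F = 1.42, adjusted p = 0.622), where 3.07% of 2897 genes with several tested transcripts did. None of the 13 transcripts passed FDR 0.05 or had an unadjusted p under 0.05; 0.0% of all transcripts passed and 7.36% had an unadjusted p under 0.05, and DESeq2 and limma-voom passed none of the 13. The groups did not overlap for 1 of the 13, the transcript of Dll1, against 23.3% of all transcripts. The transcripts are told apart by few bases: NM_001080927 has 238 bases in no other Rbpj transcript, all in its first exon, NM_009035 has 154, NM_001277116 has 180 and NM_001080928 has 70, of 5252 to 5485 bases each in GENCODE. GENCODE starts NM_009035 at 53590214 and NM_001277116 at 53590368, where the deposited counts start both at 53590346. The 154 bases of NM_009035 all lie before the GENCODE start of NM_001277116. With a start shared by both in the deposited counts, these bases could not tell NM_009035 apart from NM_001277116 there. In the Ensembl gene table the Rbpj counts were lower than in RefSeq by 273, 253 and 205 in caffeine and by 167 and 194 in vehicle.

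**Figure D4:**
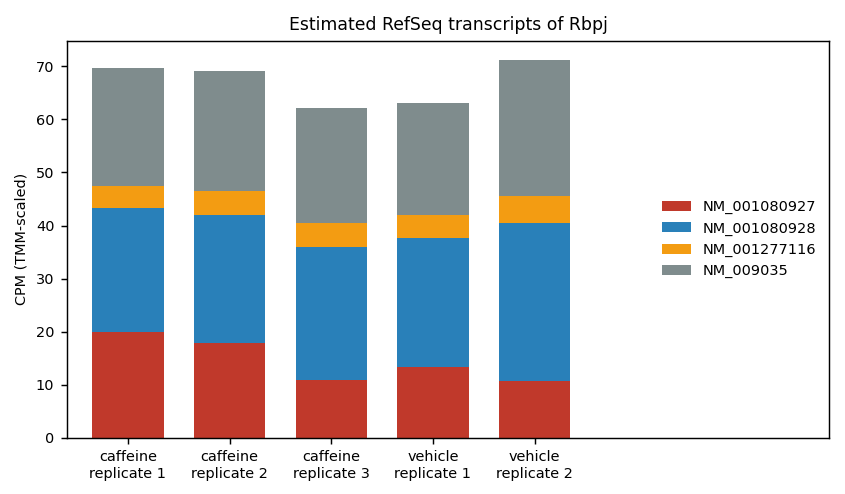
Stacked CPM of the 4 RefSeq transcripts of Rbpj in each library, caffeine left of vehicle. NM_001080927 is larger in caffeine replicates 1 and 2 (19.9 and 17.8 CPM) than in the other 3 libraries (10.7 to 13.3 CPM), while the other transcripts keep similar heights.

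Several of the genes overlap an antisense or neighbouring transcript, and whether counting used strand is not stated in the sources used here, so such reads cannot be told apart. In GENCODE, 0610009E02Rik, on the strand opposite to Notch1, covers 1068 bases or 11.3% of the Notch1 exons, and Gm13568 covers 414 bases. By Ensembl counts, 0610009E02Rik had 9, 6 and 14 counts in caffeine and 137 and 20 counts in vehicle. Gm13568 had 0 counts in all 3 caffeine libraries and 30 and 0 counts in vehicle. Both were thus highest in vehicle replicate 1. In that library Notch1 had 150 fewer counts in the Ensembl than in the RefSeq table, against differences of at most 10 in the other libraries. With Ensembl counts Notch1 had 75.8, 72.3 and 90.3 CPM in caffeine and 65.8 and 86.8 CPM in vehicle, and a log2 fold change of 0.06 (SE 0.16, edgeR adjusted p = 0.999). A930024N18Rik overlaps 17.4% of the Dll1 exons on the opposite strand, Gm17276 6.09% of those of Notch3 and Gm14207 5.71% of those of Dll4. Gm14207 had 6 to 8 Ensembl counts per library. Gm42820, on the same strand as Notch2, covers 541 bases or 5.15% of the Notch2 exons. Elsewhere, Gm30232 matched Notch3 at 92.9% identity over 466 bases.

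The rest of the pathway was read from 7 lists of 57 genes, of which 51 could be tested. None passed FDR 0.05 in either direction with edgeR, DESeq2 or limma-voom. An unadjusted p under 0.05 was found for 4 of 51, 7.84%, against 5.2% of all genes tested. All caffeine libraries lay above both vehicle libraries for 10 of 51 and below them for 5 of 51, together 29.4%, against 20.4% of all genes. The median log2 fold change was 0.05, with 34 positive and 17 negative. Over all genes tested it was 0.01, with 7333 positive and 6496 negative. The lists were chosen with results of these data known.

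**Figure D5:**
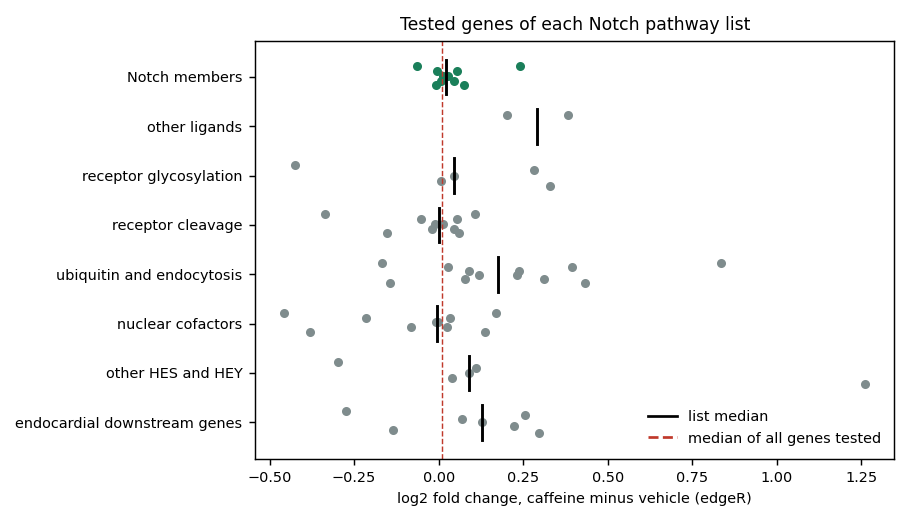
Log2 fold change, caffeine minus vehicle, of each tested gene in the 8 lists, with the list median (black) and the median of all genes tested (dashed red, 0.01). The 10 Notch genes lie between -0.06 and 0.24, the genes for ubiquitination and endocytosis have the highest median of the larger lists (0.18), and Hes7, a gene at about 1 CPM or less, lies farthest out at 1.26.

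Ubiquitination of ligands and receptors, which drives their endocytosis, held 12 tested genes of 13, with 10 positive, 2 negative and a median log2 fold change of 0.18. Dtx4, an E3 ligase of the Deltex family that acts on Notch, had 4.69, 8.12 and 5.26 CPM in caffeine and 3.25 and 3.51 CPM in vehicle. All caffeine libraries were above both vehicle libraries, as for 11.2% of all genes tested. The log2 fold change was 0.83 (SE 0.28, unadjusted p = 0.0103, edgeR adjusted p = 0.832) and 0.56 without caffeine replicate 2. Mib2, a Mind bomb ligase that ubiquitinates ligands, had 22.9, 19.5 and 18.4 CPM in caffeine and 17.5 and 13.3 CPM in vehicle, again without overlap (0.39, SE 0.18, edgeR adjusted p = 0.949; 0.18 without vehicle replicate 2 and 0.60 without vehicle replicate 1). Numbl, a relative of the Notch inhibitor Numb, had a log2 fold change of 0.31 (SE 0.19, edgeR adjusted p = 0.999; 0.20 without caffeine replicate 3 or without vehicle replicate 2). Mib1, the ligase on which ligands depend in the embryonic heart, had 72.9, 73.4 and 61.7 CPM in caffeine and 31.6 and 71.3 CPM in vehicle. Vehicle replicate 1 alone was low, and its log2 fold change of 0.43 (SE 0.32, edgeR adjusted p = 0.999) came with overlapping groups; this gene was named after its values were seen.

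Nuclear partners of RBPJ held 10 tested genes, 4 positive and 6 negative, with 2 at an unadjusted p under 0.05. Maml2, a Mastermind coactivator, had 25.0, 23.0 and 21.3 CPM in caffeine and 29.2 and 34.2 CPM in vehicle. Snw1, a cofactor that also works in splicing, had 92.2, 92.1 and 77.3 CPM in caffeine and 116 and 110 CPM in vehicle. Both had every caffeine library below both vehicle libraries, as 9.27% of all genes tested did. Neither passed: the log2 fold change was -0.46 for Maml2 (SE 0.15, edgeR adjusted p = 0.787) and -0.38 for Snw1 (SE 0.13, edgeR adjusted p = 0.861). Cir1, a corepressor that binds RBPJ, had 16.4, 14.8 and 12.7 CPM in caffeine and 17.0 CPM in each vehicle library (-0.21, SE 0.17, edgeR adjusted p = 0.999; -0.12 without caffeine replicate 3).

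The 10 genes of receptor cleavage, all tested, had 5 positive and 5 negative values and a median log2 fold change of 0.00. Furin, which cuts the receptor on its way to the surface, had 250, 245 and 305 CPM in caffeine and 252 and 243 CPM in vehicle. Its log2 fold change was 0.11 (SE 0.13), that of the gamma-secretase subunit gene Psenen -0.15 (SE 0.15) and that of Aph1c -0.34 (SE 0.39), each with an edgeR adjusted p of 0.999. Without vehicle replicate 1 Psenen had 0.02, and without vehicle replicate 2 -0.33. Without caffeine replicate 2 Aph1c had -0.10, without caffeine replicate 1 -0.54 and without vehicle replicate 1 -0.19, and without caffeine replicate 3 Furin had 0.001. Of 5 enzyme genes for sugars on the receptor, which tune its response to ligands, the Fringe genes differed in sign. Lfng had 5.61, 4.73 and 6.63 CPM in caffeine and 4.45 and 4.55 CPM in vehicle (0.33, SE 0.23). Rfng had 23.2, 22.3 and 31.1 CPM in caffeine and 21.6 and 20.4 CPM in vehicle (0.28, SE 0.17). Mfng had 2.20, 1.93 and 2.00 CPM in caffeine and 2.27 and 3.23 CPM in vehicle (-0.42, SE 0.29). The groups did not overlap for any of the 3, where 20.4% of all genes tested had no overlap. These 3 were named for the smallest p of the 5, which favours groups that do not overlap. Each had an edgeR adjusted p of 0.999. Mfng had -0.17 without vehicle replicate 2 and -0.66 without vehicle replicate 1, and without caffeine replicate 3 Lfng had 0.20 and Rfng 0.12.

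Of the other ligands, Dlk1, a noncanonical ligand from an imprinted domain, had 64.6, 48.7 and 51.2 CPM in caffeine and 53.9 and 41.4 CPM in vehicle. The groups overlapped, and the log2 fold change of 0.20 (SE 0.17, edgeR adjusted p = 0.999) was -0.0005 without vehicle replicate 2. Dlk2, Dll3 and Dner stayed under 1 CPM in every library. Dlk2 had a log2 fold change of 0.38 (SE 0.63, edgeR adjusted p = 0.999), which was -0.39 without vehicle replicate 2 and 2.23 without vehicle replicate 1.

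No other HES or HEY gene and no gene reported downstream of endocardial Notch passed the test. Of 8 other HES and HEY genes, 7 were in the table and 5 were tested, 4 positive and 1 negative, and Hes2 and Hes5 stayed under 1 CPM. Heyl had 4.82, 3.22 and 3.95 CPM in caffeine and 4.70 and 5.15 CPM in vehicle, with a log2 fold change of -0.30 (SE 0.25, edgeR adjusted p = 0.999; -0.16 without caffeine replicate 2 and -0.46 without caffeine replicate 1). Hes6, which counters HES1, had 0.11 (SE 0.15, edgeR adjusted p = 0.999; -0.09 without vehicle replicate 2). Hes7, a somite clock gene, reached at most 1.04 CPM in caffeine and 0.412 CPM in vehicle, with 1.26 (SE 0.67, edgeR adjusted p = 0.999; 0.57 without vehicle replicate 2 and 2.71 without vehicle replicate 1). Of 7 genes reported downstream of endocardial Notch, 5 were positive and 2 negative, with a median of 0.13. Snai1, a factor of the endothelial to mesenchymal transition, had 9.84, 9.15 and 12.3 CPM in caffeine and 9.02 and 8.47 CPM in vehicle. Snai2, its relative, had 9.51, 6.83 and 6.35 CPM in caffeine and 6.30 and 6.01 CPM in vehicle. Neither gene's groups overlapped, where 20.4% of all genes tested had no overlap. Both were named for a small p within their list. Neither passed: the log2 fold change was 0.26 for Snai1 (SE 0.20) and 0.30 for Snai2 (SE 0.23), each with an edgeR adjusted p of 0.999. Without caffeine replicate 3 Snai1 had 0.12, and without caffeine replicate 1 Snai2 had 0.10. Wnt4 had 14.5, 15.3 and 21.4 CPM in caffeine and 22.2 and 18.9 CPM in vehicle (-0.27, SE 0.19, edgeR adjusted p = 0.999; -0.47 without caffeine replicate 3 and -0.15 without vehicle replicate 1).

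The genes whose levels over the 5 libraries were most like those of 3 of the Notch genes were found by the root mean square difference of log2 CPM, each gene centred on its own mean, among 10046 genes. For Notch1 the nearest were Polr2a, the large subunit of RNA polymerase II (0.020), and the corepressor gene Bcorl1 (0.022). Polr2a had 173, 165 and 213 CPM in caffeine and 168 and 200 CPM in vehicle, so the highest libraries were the same as for Notch1. For Dll4 they were Ankrd44 (0.023), the zinc finger gene Rreb1 (0.024) and Ppfibp1 (0.025). For Jag2, the gene with the largest spread, they were Ogfod2 (0.029), the biliverdin reductase gene Blvrb (0.058) and Rpusd4 (0.071). Blvrb had 25.9, 27.8 and 34.1 CPM in caffeine and 37.0 and 20.6 CPM in vehicle, the same order of libraries as Jag2. These are descriptions over 5 libraries prepared alike.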

How the data were processed

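RNA from 5 libraries of embryonic ventricle, 3 caffeine and 2 vehicle by sample title, was counted by the authors. The deposited tables hold estimated counts per gene and per transcript, not scaled between libraries, on RefSeq transcripts dated 2013-05-10 and Ensembl release 71, per the file headers. TopHat, Partek, mm10 and GRCm38 are named in the submitters' processing notes. Tool versions, counting parameters and the use of strand were not given there.

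Estimated counts were rounded, filtered with filterByExpr and scaled by TMM (factors 0.97 to 1.02). All genes or transcripts were then tested with edgeR 4.0.16 in R 4.3.3 by the quasi-likelihood test (robust, two-sided, Benjamini-Hochberg over all tested, FDR 0.05), and transcript usage with diffSpliceDGE. SE was taken as the absolute fold change divided by sqrt(F), and 95% intervals use the fit's degrees of freedom. DESeq2 1.42.0 and limma 3.58.1 were alternatives, as were other scalings and filters, the Ensembl gene table, a replicate block and leaving out each library. The gene, transcript and usage fits were run on simulated counts with planted changes larger than those of the Notch genes, so smaller changes were not tried. The assignment of reads between transcripts was not simulated. Pooled libraries are the replicates, and whether they are fully separate litters is not stated, so p-values measure the spread between these pools.

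Transcript lengths and overlaps came from GENCODE M21, matched by RefSeq accession for all 13 transcripts, and similar sequences from BLAST 2.17.0 (at least 90% identity over 200 bases). Gene ends are the deposited stop less 1 base. The genes, lists and tests were chosen with earlier results of these data known. The text names all 10 genes, the 3 genes with the smallest p of each other pathway list (both where only 2 were tested) and, for likeness, the 3 nearest genes (mean log2 CPM 3 or more) to Notch1, to Dll4 and to the most variable member, of which 1 is not reported here. Hes3 of the HES list was not analysed here. The Ensembl transcript table was not used.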

Additional observations from a re-analysis of the deposited data

How the results depend on the processing

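No Notch gene, other pathway gene, Notch transcript or Rbpj usage test passed under any alternative run, an FDR of 0.1 included, so these counts were 0 throughout; the smallest adjusted p of any of the 10 genes was 0.755 and the smallest unadjusted p was 0.0463, for Notch3 without caffeine replicate 1. Over all genes the count past FDR 0.05 was 1, and it was 6 with no low-count filter, 18 with DESeq2, 2 with the Ensembl table and 0 to 18 when single libraries were left out (0 without vehicle replicate 1, 18 without caffeine replicate 1). Over all transcripts it was 0, and 194 with DESeq2 and 0 to 1 without single libraries. With the replicate number as a block it was 52 genes and 9 transcripts. Each replicate number takes a coefficient in that fit, which leaves few degrees of freedom in 5 libraries. Deviations of same-numbered libraries correlated at -0.022 and 0.131, and those of vehicle replicate 1 and caffeine replicate 3 at 0.127. The deviations of 2 vehicle libraries mirror each other, so these values cannot show whether the numbers are pairs. The main fit did not take them as pairs. With the block the difference in the Notch1 share was -2.49 points and in the Dll4 share 0.309 points. Caffeine replicate 3 has no same-numbered vehicle library, so with the block its value does not enter the group difference. Both share differences were the same when caffeine replicate 3 was left out. The causes of the shifts in the counts of genes and transcripts were not tested.

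Of the 10 genes, Notch3, Dll1 and Hes1 kept their direction under every alternative, though not their size: without single libraries Hes1 ranged from -0.14 to -0.0054, Dll1 from 0.04 to 0.09 and Notch3 from 0.12 to 0.35, and with no scaling Hes1 had -0.0018 and Dll1 0.14. With the replicate block Notch3 had 0.11 and Dll1 0.04. Fold changes near 0 changed sign. Notch1 had 0.0001 with upper-quartile scaling, 0.05 with no scaling, 0.0021 with the 5 CPM filter and 0.06 with Ensembl counts. Notch4 had -0.0052 with RLE scaling and with DESeq2. Rbpj had 0.05 with no scaling, 0.0005 with the 5 CPM filter and 0.05 with the replicate block. Leaving out single libraries gave ranges of -0.14 to 0.11 for Notch1, -0.21 to 0.24 for Notch2, -0.07 to 0.06 for Notch4, -0.19 to 0.25 for Dll4, -0.07 to 0.14 for Jag1, -0.30 to 0.49 for Jag2 and -0.10 to 0.06 for Rbpj. Those of Dlk1 were -0.0005 to 0.40, of Dlk2 -0.39 to 2.23, of Hes6 -0.09 to 0.31 and of Psenen -0.33 to 0.02. Those of the Rbpj transcripts NM_001277116 and NM_009035 were -0.25 to 0.0065 and -0.21 to 0.05. Scaling moved the median of all genes by less than 0.1, to 0.07 with none. The Rbpj transcript NM_001080927 had 0.66 with the replicate block and NM_001080928 -0.10 with no scaling. With 2 vehicle pools, even changes such as that of Maml2, whose interval of -0.78 to -0.14 leaves out 0, did not pass after adjustment over all genes, and Jag2, at 118 to 222 counts, was the least precise.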
